A study of Mus musculus with 4 samples.

Results

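The comparison is between whole mouse embryos homozygous for Tc at E10 and whole Tc/Tc embryos at E8, with 1 RNA-seq library at each stage. Of the 36808 genes in each deposited table, 12709 autosomal genes were compared: they had an estimate in both tables that hold these libraries and reached 1 FPKM (fragments per kilobase of transcript, a measure corrected for transcript length and library size) in at least 1 of the 2 libraries. The stage ratio was log2((FPKM at E10 + 1)/(FPKM at E8 + 1)), so a fold change of a gene with a low level is understated. Just inside the minimum lay Chst1 at 1.0002 FPKM at E8 and 0.897 at E10, and just outside it lay Isg15 at 0.999 and 0.798.

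The series holds 4 libraries of whole embryos, from wild-type and Tc/Tc animals at each stage, and the labels give the strain of origin of all 4 as (C3H/HeH x 101/H)F1. The label E8 stands for embryos of E7.5 to E8.0, and the label E10 for embryos of E10.0 to E10.5. The labels do not say how many embryos went into a library, nor their age within these spans. A difference in age between the genotypes at a stage therefore cannot be told apart from a difference of genotype. With 1 library per group no difference could be tested, and each statement below describes these libraries.

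Tc, known as Curtailed, is an allele of T, the gene of the T-box transcription factor Brachyury. Brachyury is made in the primitive streak, the notochord and the tail bud, where it is needed for mesoderm of the trunk and tail. Over the stages sampled here a mouse embryo normally turns, forms a beating heart and a blood circulation, adds somites from the tail bud and loses the last expression of epiblast genes. A whole embryo library may also carry yolk sac tissue, whose outer layer, the visceral endoderm, makes apolipoproteins and other plasma proteins.

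The promoters of 6 genes among the largest increases, 3 of globins and 3 of cardiac muscle proteins, are printed as the 150 bases before the RefSeq start of each gene, 5′ to 3′ on the gene's strand, in GRCm38.p6. In the globin promoters the capitals mark CCAAT and CACCC, elements that are textbook features of globin promoters. In the cardiac promoters the capitals mark the CArG box, the site that serum response factor binds in many muscle genes. These motifs and genes were chosen after several motifs had been looked for in the promoters of more genes and the values had been seen, and the 3 cardiac promoters are the ones of their list that hold the motif.
Hba-x, chr11:32276450-32276599, plus strand: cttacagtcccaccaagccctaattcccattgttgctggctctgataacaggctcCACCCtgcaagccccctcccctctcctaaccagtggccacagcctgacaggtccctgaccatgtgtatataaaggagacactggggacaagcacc
Hba-a1, chr11:32283522-32283671, plus strand: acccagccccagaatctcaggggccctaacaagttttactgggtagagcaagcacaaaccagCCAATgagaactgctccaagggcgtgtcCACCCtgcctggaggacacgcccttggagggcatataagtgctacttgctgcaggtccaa
Hbb-y, chr7:103853208-103853357, minus strand: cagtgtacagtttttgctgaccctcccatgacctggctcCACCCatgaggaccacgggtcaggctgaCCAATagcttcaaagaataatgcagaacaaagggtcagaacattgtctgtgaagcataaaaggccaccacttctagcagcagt
Actc1, chr2:114052876-114053025, minus strand: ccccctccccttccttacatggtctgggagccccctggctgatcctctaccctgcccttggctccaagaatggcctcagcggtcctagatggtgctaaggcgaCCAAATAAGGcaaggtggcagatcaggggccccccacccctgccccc
Myl7, chr11:5898783-5898932, minus strand: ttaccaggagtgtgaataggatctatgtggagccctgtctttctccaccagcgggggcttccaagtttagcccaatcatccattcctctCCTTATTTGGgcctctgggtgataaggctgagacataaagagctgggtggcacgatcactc
Myl3, chr9:110763528-110763677, plus strand: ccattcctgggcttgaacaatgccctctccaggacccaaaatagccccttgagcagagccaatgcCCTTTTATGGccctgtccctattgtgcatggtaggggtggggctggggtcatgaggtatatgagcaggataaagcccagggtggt

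On either strand, a CArG box was found in the same window of 3 of the 15 measured cardiac genes and of 0.916% of all 32851 promoters in the RefSeq table. CCAAT was found in 3 of the 4 globin genes with an entry (Hba-x, Hba-a1, Hba-a2 and Hbb-y) and in 24.5% of all promoters. CACCC was found in 4 of those 4 and in 37.4% of all promoters. The CArG box began 47 bases before the start of Actc1, 61 before that of Myl7 and 85 before that of Myl3. A match of letters is a description of these windows and not a bound site.

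In Tc/Tc embryos more genes were higher at E10 than were lower. By the size rule used throughout, an absolute log2 ratio of 1 or more, 961 genes were higher at E10 (7.56% of the genes compared) and 443 were lower (3.49%). The median ratio was 0.12 and the quartiles were -0.21 and 0.46. With ratios centred on that median the split was 754 higher and 585 lower. At a log2 ratio of 3 or more, 77 genes were higher and 7 were lower. From under 1 FPKM to 10 FPKM or more went 47 genes, and 4 went the other way. Genes listed at 0 at E10 in both genotypes were left out whatever their E8 level, so some decreases could not be counted. For want of an estimate, 398 autosomal genes with 1 FPKM or more in 1 Tc/Tc library were left out. Some of these were higher at E10, and their directions were not counted. In wild-type embryos, measured over 13097 genes, 936 were higher at E10 (7.15%), 616 were lower (4.7%), and the median ratio was 0.02.

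The summed FPKM was 682179 in the Tc/Tc E8 library and 610808 in the Tc/Tc E10 library. Genes of the mitochondrial genome held 8.35% and 8.08% of it. Genes with no chromosome in the annotations used here held 19.3% at E8 and 9.42% at E10, and were left out. The tables give no read counts, so the sequencing depth is unknown and low FPKM values carry an unknown counting error. The Tc/Tc E8 library was estimated once in each of 2 tables, and these estimates differed by an SD of 0.156 on the log2 scale over 11669 genes, 17 of them past the size rule. Outside those values, 105 measured genes were listed at 0 in 1 estimate and at 1 FPKM or more in the other. That SD covers re-estimation from the same library and no biological or library error. Each table was estimated separately, so a level set beside one from another table, wild type included, carries this error too.

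The genes with the largest increases were those of red blood cells and heart muscle. Among genes above 0 in both Tc/Tc libraries and at 10 FPKM or more in the higher of them, the 12 with the highest ratios were the globins Hba-x, Hbb-y, Hba-a1 and Hba-a2, the cardiac muscle genes Actc1, Myh6, Myl4, Myh7, Myl7 and Ankrd1, the red cell anion exchanger Slc4a1 and the nuclear receptor gene Nr2f1. Nr2f1 stood at 0.0758 FPKM at E8 and 46.0 at E10, a log2 ratio of 5.45, and at 9.94 and 122 FPKM in wild type. Within the same limits, the 12 with the lowest ratios were Pou5f1, Wnt8a, Cer1, Apoe, Apob, Mttp, Soat2, Amn, Spink3, Fabp1, Pla2g12b and Ctsh. The first 3 are genes of the early embryo. Apoe, Apob and Mttp serve lipoprotein assembly, Soat2 and Fabp1 the handling of cholesterol and fatty acids, Amn nutrient uptake and Ctsh protein breakdown in lysosomes. Of measured genes listed at 0 at E8 with both estimates, the highest at E10 were Hoxa9, Csrp3, Mybpc3, Sox10, Hoxc6 and Pax8. Of measured genes listed at 0 at E10, the highest at E8 were Srgn at 4.59 FPKM and Ccnb1ip1 at 2.23. Genes left out for want of an estimate could not be ranked. Among them were Pax6, listed at 0 and 58.0 FPKM at E8 and E10, and Gata4, listed at 38.5 and 0. Gata4 was at 0 in the other E8 estimate.

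Gene lists for tissues, signalling pathways and cell states were then read against these shares. The 51 lists hold 652 genes, of which 633 were found and 476 measured: 153 were higher at E10 and 54 lower. Of the others, 72 had no estimate in 1 of the tables, 59 stayed under 1 FPKM and 26 were not autosomal. Of the higher ones 75 were under 1 FPKM at E8, and of the lower ones 10 were under 1 FPKM at E10; these met the minimum through 1 library alone, so that counts and medians over measured members lean toward a difference. A median ratio of 1 or more was found in 16 lists, or in 8 with no minimum, and of -1 or less in 2, or in 1. With the other estimate of Tc/Tc E8, 7 of the calls were not past the rule in the same direction: Apoa4, Bnip3, Bub1, Efnb2, Grb10, Mylpf and Ramp2.

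**Figure D1:**
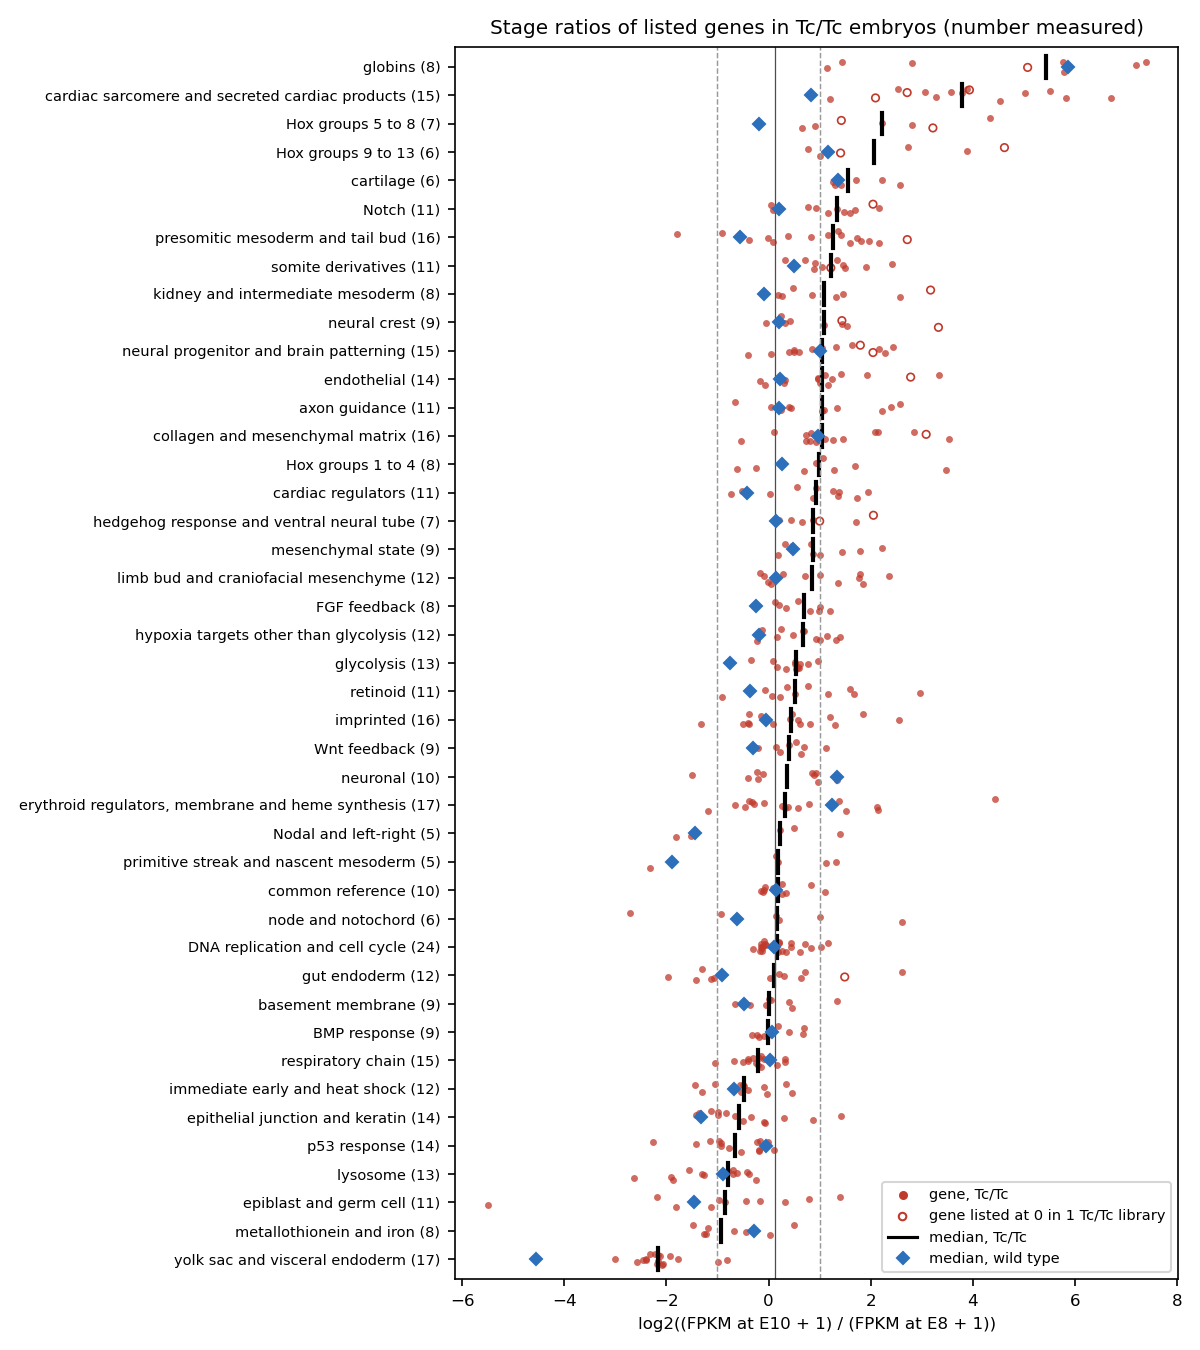
Stage ratio of each measured gene in the Tc/Tc libraries (red points; open where 1 library is listed at 0) for lists with 5 or more measured genes, on the horizontal axis as log2((FPKM at E10 + 1)/(FPKM at E8 + 1)). Black bars are Tc/Tc medians, blue diamonds wild-type medians, dashed lines the size rule and the thin line the median of all genes; globins (5.42) and cardiac genes (3.80) lie farthest right and yolk sac genes (-2.17) farthest left.

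Cardiac muscle genes were low in the Tc/Tc E8 library and abundant at E10. Of 15 measured genes for sarcomere proteins and secreted cardiac products, 15 were higher at E10, with a median log2 ratio of 3.80 and a range of 1.20 to 6.70. Their summed FPKM was 28.7 at E8 and 1004 at E10. Actc1, the cardiac actin gene, went from 1.47 to 256 FPKM, a log2 ratio of 6.70. Myh6, the alpha myosin heavy chain gene of the early heart, went from 0.679 to 93.9 FPKM (5.82), and Myh7, its beta counterpart, from 1.30 to 74.1 FPKM (5.03). Those are the genes of the thick and thin filaments that contract heart muscle. The myosin light chain genes Myl4, Myl7 and Myl3 went from 2.59 to 163, from 5.50 to 149 and from 1.67 to 30.6 FPKM. The troponin T gene Tnnt2 went from 7.49 to 117 FPKM (3.80). Mybpc3, the myosin-binding protein C gene, and the natriuretic peptide genes Nppa and Nppb were listed at 0 at E8 and at 14.3, 5.56 and 3.27 FPKM at E10.

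In wild type the same 15 genes had a median ratio of 0.84, with 4 of them past the size rule. Their wild-type levels at E8 ran from Nppb, listed at 0, Nppa at 0.355 FPKM and Ryr2 at 1.52 to Myh6 at 71.8, Myl7 at 73.3, Actc1 at 79.0 and Tnnt2 at 84.9. For the 4 most abundant the fold difference between genotypes was smaller at E10 than at E8, and Tc/Tc stood higher at E10. Tc/Tc and wild type were then at 256 and 144 FPKM for Actc1 and at 93.9 and 67.1 for Myh6. For Tnnt2 they were at 117 and 55.8 FPKM, and for Myl7 at 149 and 64.9. The Tc/Tc ratio was the larger in 15 of 15 genes, against 63.8% of the 12215 genes measured in both genotypes. This difference between genotypes was not tested. In whole embryos, fewer cells of a type and less RNA per cell cannot be told apart. Nor can genotype and a difference in age within the span of the E8 label.

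The cardiac transcription factor genes followed a smaller range. Of 11 measured cardiac regulators, 5 were higher and none lower, with a median of 0.93. Nkx2-5, a homeobox gene of heart progenitors, went from 0.443 to 4.53 FPKM (1.94), Mef2c from 1.801 to 8.29 (1.73), Hand2 from 4.60 to 13.6 (1.38) and Tbx5 from 0.575 to 3.04 (1.36). Gata5 went from 2.50 to 7.36 FPKM (1.25). Others were already present at E8 and moved within the size rule: Hand1 stood at 67.7 and 46.7 FPKM, Gata6 at 8.83 and 9.04, and Tbx20 at 4.58 and 7.27. Hand1 is also a gene of extraembryonic tissue.

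**Figure D2:**
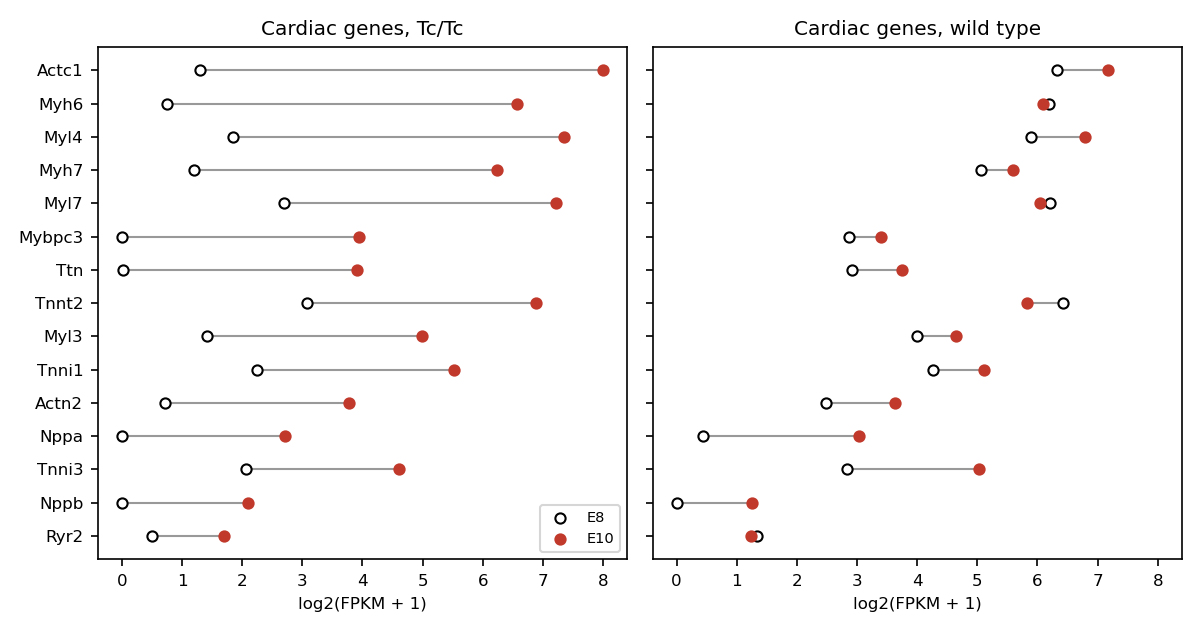
Levels of the 15 measured cardiac genes as log2(FPKM + 1) on the horizontal axis, at E8 (open circles) and E10 (red circles), in Tc/Tc (left) and wild type (right), 1 library each. In Tc/Tc the E10 circle lies to the right of the E8 circle for 15 of 15 genes, and 4 of 15 wild-type genes are past the size rule.

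Globin genes rose in both genotypes. All 8 measured globins were higher at E10 in Tc/Tc, with a median of 5.42, and their summed FPKM was 88.8 at E8 and 2474 at E10. The embryonic alpha-type gene Hba-x went from 4.58 to 931 FPKM (7.38) and the embryonic beta-type gene Hbb-y from 0.724 to 250.2 FPKM (7.19). Hbb-bh1, the beta-type globin of the first yolk sac red cells, was the highest globin at E8 at 70.9 FPKM and stood at 504 at E10 (2.81). The adult-type genes Hba-a1 and Hba-a2 went from 7.36 to 459 and from 4.35 to 292 FPKM, but these copies are nearly identical and their split is uncertain. Hbb-b1 and Hbb-b2 stayed low, at 3.21 and 1.86 FPKM at E10, with the same uncertainty. In wild type the median of 7 measured globins was 5.86, and Hba-x and Hbb-y ended at 2470 and 1727 FPKM. Globins held 0.405% of the summed FPKM at E10 in Tc/Tc and 1.15% in wild type.

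Other red cell genes changed less evenly. Of 17 measured erythroid regulators, membrane proteins and heme enzymes, 5 were higher, 1 was lower and the median was 0.33. Among the higher ones were membrane, membrane skeleton and nuclear genes of maturing red cells: Slc4a1 went from 0.0470 to 21.6 FPKM (4.43), Hemgn from 0.101 to 3.83 (2.13), Ank1 from 0.328 to 2.81 (1.52) and Epb4.2 from 0.476 to 2.83 (1.38). Bcl11a, a repressor of embryonic globin genes, was the one that was lower, at 1.52 FPKM at E8 and 0.117 at E10 (-1.18). The regulators Tal1, at 4.87 and 3.67 FPKM, Lmo2, at 30.2 and 21.6, and Gfi1b, at 3.87 and 2.72, stayed within the size rule. In wild type 9 of the 17 were higher and the median was 1.23, and the Tc/Tc ratio exceeded the wild-type ratio in 0 of 17.

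Vessel genes were present at E8 and in part higher at E10. Of 14 measured endothelial genes 8 were higher, with a median of 1.06. Cdh5, the adhesion gene of endothelial junctions, went from 3.68 to 16.8 FPKM (1.92), Tie1 from 1.43 to 4.49 (1.17) and Esam from 2.11 to 6.33 (1.24). Emcn was listed at 0 at E8 and at 5.88 FPKM at E10. The VEGF receptor genes Kdr, at 14.9 and 18.7 FPKM, and Flt1, at 9.29 and 8.80, stayed within the size rule. Etv2, the factor that starts the endothelial and blood lineage, stood at 8.03 and 7.07 FPKM in Tc/Tc and at 8.83 and 0.736 in wild type. Plvap, at 0.588 and 15.0 FPKM, was listed at 0 in the other estimate of Tc/Tc E8.

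Yolk sac and visceral endoderm genes were the largest group that was lower at E10. Of 17 measured, 15 were lower and none higher, with a median of -2.17 and a range of -3.004 to -0.81. Their summed FPKM was 5837 at E8 and 1084 at E10. All genes of the list that were found, measured or not, held 0.942% and 0.218% of the summed FPKM of each library. Apoe went from 2772 to 345 FPKM (-3.004), Apoa1 from 725 to 165 (-2.13), Apob from 309 to 61.3 (-2.32) and the thyroxine carrier gene Ttr from 593 to 130.2 (-2.18). The uptake receptor genes Cubn and Amn went from 212 to 48.9 (-2.09) and from 20.3 to 2.56 FPKM (-2.58). Afp, at 129 and 72.9 FPKM, and Trf, at 65.5 and 32.4, were within the size rule, and Trf was at 132 FPKM in the other E8 estimate. Apoa4 went from 50.8 to 10.5 FPKM, but is listed at 0 in the other E8 estimate. In wild type the list held 0.352% of the summed FPKM at E8 and 0.0166% at E10, with a median ratio of -4.55. The list thus stood higher in Tc/Tc than in wild type at both stages. Whether the libraries held different amounts of yolk sac was not tested.

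Lysosomal genes, which visceral endoderm also expresses strongly, were lower too. Of 13 measured, 6 were lower, none was higher and the median was -0.79. The cathepsin genes Ctsh, Ctsb and Ctsl went from 250 to 39.6 (-2.63), from 70.5 to 18.0 (-1.91) and from 649 to 219 FPKM (-1.56). Lgmn, Cd63 and Ctsz were the other 3, at -1.88, -1.29 and -1.26. In wild type 5 of the 13 lysosomal genes were lower, with a median of -0.89. Of 8 measured metallothionein and iron-handling genes 4 were lower, among them the ferritin heavy chain gene Fth1, from 1045 to 447 FPKM (-1.22), and Mt2, from 162 to 67.05 FPKM (-1.26). Mt2 stood at 20.1 and 36.2 FPKM in wild type. Of 12 measured gut endoderm genes 5 were lower and 2 higher: Cldn6, Sox17, Foxa3 and Trh were among the lower ones, and Shh and Pyy, the latter listed at 0 at E8, were higher. Cldn6 is known from visceral endoderm as well. Of 14 measured epithelial junction and keratin genes 3 were lower (Cdh1, Cldn7 and Cldn6) and 1 was higher (Krt7). In wild type 8 of these 14 genes were lower. So were 2 of the 8 metallothionein and iron-handling genes and 5 of 11 gut endoderm genes measured in wild type.

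Genes of the epiblast were among the largest decreases. Of 11 measured epiblast and germ cell genes 4 were lower at E10 and 1 was higher, with a median of -0.84, or -0.45 with no minimum. Pou5f1, the gene of the pluripotency factor Oct4, went from 125 to 1.79 FPKM, a log2 ratio of -5.49. The wild-type levels of Pou5f1 were 18.9 and 0.184 FPKM. L1td1 went from 33.5 to 6.60 FPKM (-2.18), Utf1 from 3.73 to 0.340 (-1.82) and Fgf5 from 1.92 to 0.338 (-1.12). The RNA-binding genes Lin28a, at 303 and 222 FPKM, and Lin28b, at 21.6 and 38.2, stayed within the size rule. Of 5 measured primitive streak genes 2 were higher, Snai1 (1.32) and Evx1 (1.12), and 1 was lower. That one was Eomes, a T-box gene, which went from 4.48 to 0.0959 FPKM (-2.32), against 0.343 and 0.0513 in wild type. A whole-embryo library does not show which tissue the Eomes transcripts came from. Wnt8a, a Wnt ligand of the streak, went from 28.4 to 1.03 FPKM (-3.86), and Foxh1, which mediates Nodal signalling, from 23.97 to 6.13 (-1.81). Of 5 measured Nodal and left-right genes, Foxh1 and Cfc1 (-1.52) were lower and Tdgf1 (1.39) was higher. The list named node and notochord had 6 measured genes. Of these Cer1, a secreted Nodal inhibitor, was lower, from 12.2 to 1.01 FPKM, and Shh, from 0.196 to 6.33 FPKM, was higher. The list members Noto and Foxj1 stayed under 1 FPKM at both stages. Some markers of trophoblast and decidua also appeared at E8. Of 11 trophoblast genes 3 were measured and 2 were lower: Elf5 went from 8.47 to 0.557 FPKM (-2.60) and Ascl2 from 2.02 to 0.369 (-1.14). Hand1, the other, was within the size rule. At E8 the 3 summed to 78.2 FPKM in Tc/Tc, with Hand1 at 67.7, and to 34.2 in wild type, with Hand1 at 33.5. Of 3 decidua genes none was measured. Prl8a2, 1 of them, stood at 3.21 FPKM at E8 and was listed at 0 in both libraries of the E10 table. The share of these markers in any other stage ratio was not tested.

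Transcripts of T itself were present at both stages. T stood at 40.0 FPKM at E8, or 48.3 in the other estimate, and at 30.4 at E10, a log2 ratio of -0.39 and within the size rule. In wild type T went from 36.8 to 7.99 FPKM (-2.07). The tables give 1 value for the gene, so they do not show which form of the transcript was measured, and the level of T checks no genotype label.

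Presomitic mesoderm and tail bud genes were mostly higher at E10 in Tc/Tc. Of 16 measured, 9 were higher and 1 was lower, with a median of 1.26. The Notch ligand genes Dll1 and Dll3, which drive segmentation, went from 3.26 to 18.2 (2.17) and from 1.41 to 7.44 FPKM (1.81). Lfng and Hes7, cycling genes of the segmentation clock, went from 1.22 to 6.38 (1.73) and from 0.271 to 2.25 FPKM (1.35). Fgf8 and Fgf17, growth factors of the tail bud, went from 2.74 to 10.3 (1.59) and from 0.206 to 3.69 FPKM (1.96). Tbx6, which commits cells to presomitic mesoderm, went from 1.07 to 3.60 FPKM (1.16), and Msgn1 was listed at 0 at E8 and at 5.57 FPKM at E10. Cdx1 was the one that was lower, from 20.2 to 5.12 FPKM (-1.796), while Cdx2 stood at 16.4 and 16.3 FPKM.

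In wild type 1 of those 16 genes was higher and 6 were lower, with a median of -0.55, and the Tc/Tc ratio was the larger in 16 of 16. Tbx6 went from 4.48 to 1.44 FPKM in wild type, Msgn1 from 7.90 to 1.501 and Cdx2 from 20.03 to 2.22. Fgf8 stood at 11.8 and 7.60 FPKM and Dll1 at 20.7 and 24.8. At E8 Dll1, Dll3, Lfng, Hes7, Fgf8, Fgf17, Tbx6 and Msgn1 were lower in Tc/Tc than in wild type. At E10 Tbx6, Msgn1, Hes7, Cdx2 and T were higher in Tc/Tc than in wild type. These differences were not tested.

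**Figure D3:**
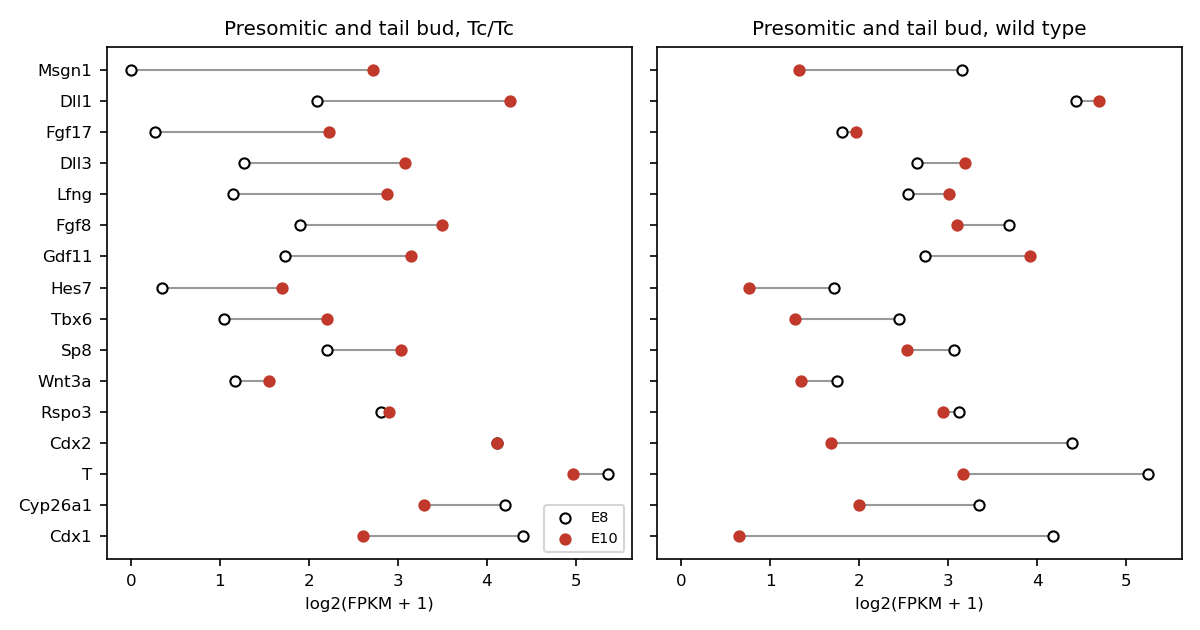
Levels of the 16 measured presomitic and tail bud genes as log2(FPKM + 1) on the horizontal axis, at E8 (open circles) and E10 (red circles), in Tc/Tc (left) and wild type (right), 1 library each. By the size rule 9 Tc/Tc genes are higher and 1 is lower at E10, and 1 wild-type gene is higher and 6 are lower.

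Hox genes, which give segments their identity along the body axis, were in part higher at E10. Of 8 measured genes of paralog groups 1 to 4, 4 were higher, with a median of 0.997; of 7 of groups 5 to 8, 5 were higher, with a median of 2.22; and of 6 of groups 9 to 13, 5 were higher, with a median of 2.07. Those 6 were all under 1 FPKM at E8, so they met the minimum through E10 alone; with no minimum the median of 11 genes of groups 9 to 13 was 0.78, under that of groups 1 to 4. No measured Hox gene was lower. Hoxb1, of the group that is switched on first, stood at 16.1 FPKM at E8 and 13.5 at E10. Hoxc4 went from 0.677 to 17.7 FPKM (3.48), Hoxc8 from 0.385 to 26.8 (4.33), Hoxb8 from 2.13 to 13.6 (2.22) and Hoxb9 from 0.974 to 28.2 (3.89). Hoxa9, Hoxc6, Hoxc5 and Hoxc10 were listed at 0 at E8 and at 23.6, 8.31, 1.69 and 1.66 FPKM at E10.

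In wild type the same 6 genes of groups 9 to 13 lay between 0.873 and 22.01 FPKM at E8. Wild-type Hoxc8, Hoxb9, Hoxc4 and Hoxa9 stood at 18.2, 22.01, 13.3 and 8.11 FPKM at E8 and at 10.6, 20.7, 16.1 and 20.3 FPKM at E10. The wild-type medians were 0.27, -0.18 and 1.16 for the 3 sets of paralog groups. Of groups 10 and above, 2 genes were measured, and both were lower in Tc/Tc than in wild type at E10: Hoxa10 at 1.13 against 4.28 FPKM and Hoxc10 at 1.66 against 11.01.

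**Figure D4:**
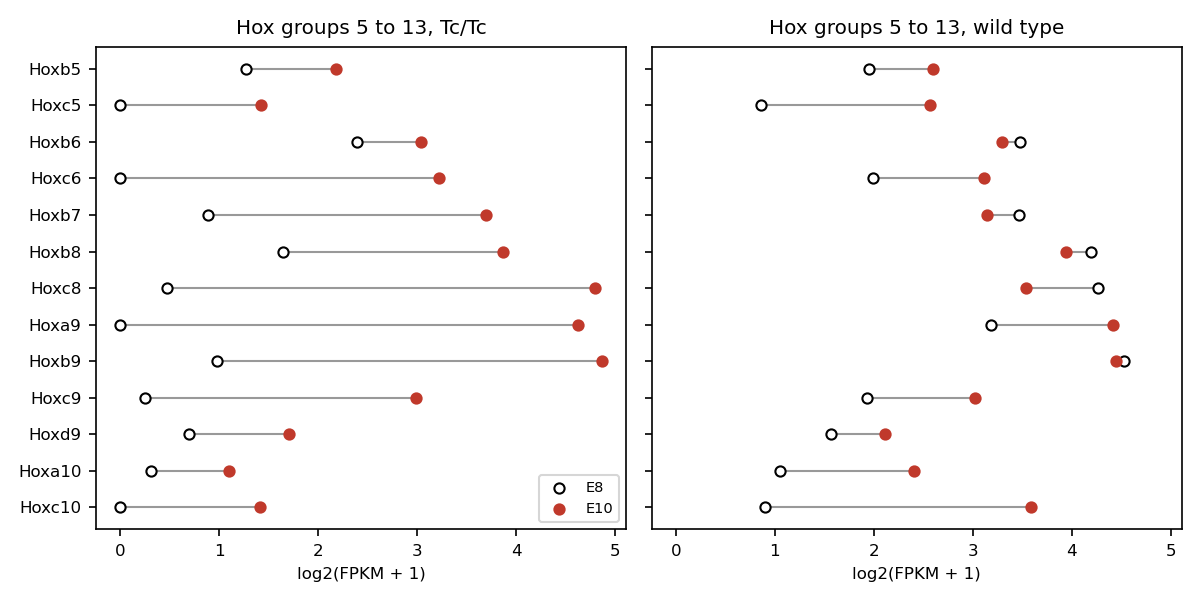
Levels of the 7 measured Hox genes of paralog groups 5 to 8 and the 6 of groups 9 to 13 as log2(FPKM + 1) on the horizontal axis, ordered by paralog group from top to bottom, at E8 (open circles) and E10 (red circles), in Tc/Tc (left) and wild type (right), 1 library each. In Tc/Tc the E8 circles from Hoxc8 down lie under 1 FPKM, and Hoxb9 reaches 28.2 FPKM at E10.

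Somites and their derivatives followed the same direction. Of 11 measured somite genes 7 were higher and none was lower (median 1.22), including Pax3, a gene of the dermomyotome, from 0.656 to 7.81 FPKM (2.41), and Meox1 from 5.995 to 16.7 (1.34). Tcf15 stood at 3.67 and 4.87 FPKM. Of 6 measured cartilage genes 6 were higher (median 1.56), among them Sox9, the regulator of cartilage, from 4.65 to 32.7 FPKM (2.58), and Sox5 from 0.427 to 5.67 (2.23). Sox9 was at 7.94 FPKM in the other E8 estimate. Of 10 listed skeletal muscle genes 4 were measured, and 3 of those were higher: Acta1 (1.55), Des (1.27) and Mylpf (1.07). Among the rest, Myod1, Myog, Myf6 and Chrng were listed at 0 at both stages in Tc/Tc, and Myf5 and Myh3 stayed under 1 FPKM. With the other estimate of Tc/Tc E8 the Mylpf ratio was 0.76, inside the size rule. The wild-type medians of the 3 lists were 0.50, 1.36 and 0.90.

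Connective tissue, limb and kidney genes were also higher in part. Of 16 measured collagen and mesenchymal matrix genes 8 were higher (median 1.05), with Col3a1 from 0.282 to 13.9 FPKM (3.54), Postn from 1.33 to 15.7 (2.84) and Col1a2 from 5.05 to 25.6 (2.14). Of 9 measured basement membrane genes 1 was higher, Nid1 (1.33). Of 12 measured limb and face mesenchyme genes 6 were higher, and Tbx4, a gene of the hindlimb field and allantois, went from 0.214 to 3.12 FPKM (1.76). Of 8 measured kidney and intermediate mesoderm genes 4 were higher, with Osr1 from 0.771 to 9.51 FPKM (2.57) and Pax8 from a listed 0 to 8.02. Of 9 measured genes of the mesenchymal state 4 were higher, with Cdh2, the N-cadherin gene, from 13.3 to 66.0 FPKM (2.22) and Twist1 from 6.36 to 18.99 (1.44). In wild type Osr1 stood at 8.12 and 3.74 FPKM. The 4 kidney genes that were higher were under 1 FPKM at E8 and met the minimum through E10 alone; the Tc/Tc median of the list was 1.09, and 0.67 with no minimum.

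Nervous system genes split between progenitors and neurons. Of 15 measured progenitor and brain patterning genes 8 were higher and none was lower, with a median of 1.06 in Tc/Tc and 1.003 in wild type. En1, of the midbrain and hindbrain boundary, went from 0.346 to 6.33 FPKM (2.45), and Pax5 from 0.0793 to 3.84 (2.17). Otx2 stood at 23.6 and 33.8 FPKM. Of 9 measured neural crest genes 5 were higher, and Sox10 was listed at 0 at E8 and at 9.04 FPKM at E10. Axon guidance genes were higher in 6 of 11, with Sema3a from 2.48 to 19.6 FPKM (2.57) and Robo2 from 1.41 to 11.6 (2.39).

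Of 10 measured neuronal genes 1 was higher (Pou4f1, from 0.489 to 2.77 FPKM) and 1 was lower (Nefm, from 11.8 to 3.51 FPKM), with a median of 0.37. In wild type 6 of these 10 were higher, with a median of 1.33. The neuronal tubulin gene Tubb3 stood at 2.75 and 6.37 FPKM in Tc/Tc and at 4.65 and 26.6 in wild type. Elavl4, an RNA-binding gene of neurons, stood at 0.283 and 1.37 FPKM in Tc/Tc and at 0.846 and 11.9 in wild type. Both were thus lower in Tc/Tc than in wild type at E10, a difference that was not tested.

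Signalling pathways differed in how many of their genes moved. Of 11 measured Notch genes 7 were higher (median 1.34), including the ligand gene Jag1 from 5.08 to 18.5 FPKM (1.68) and the target gene Hes1 from 16.6 to 47.9 (1.48). Of 11 measured retinoid genes 4 were higher: the binding protein genes Crabp1 (2.96) and Crabp2 (1.60) and the degrading enzyme genes Cyp26c1 (1.68) and Cyp26b1 (1.16). Aldh1a2, the synthesising enzyme gene, stood at 25.7 and 33.3 FPKM. Of 7 measured hedgehog genes 3 were higher, Nkx6-1, Nkx6-2 and Nkx2-2, the last of them listed at 0 at E8 and at 1.003 FPKM at E10. Of 9 measured Wnt feedback genes 1 was higher, Lef1 from 13.7 to 30.9 FPKM (1.12), of 8 FGF feedback genes 2 were higher, Il17rd (1.19) and Dusp6 (1.01), and of 9 BMP response genes none was past the size rule.

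Genes of the p53 response were lower at E10 or within the size rule. Of 14 measured, 3 were lower and none was higher, with a median of -0.65. Ccng1, a cyclin gene induced by p53, went from 76.5 to 15.2 FPKM (-2.26), Phlda3 from 6.57 to 1.83 (-1.42) and the cell cycle inhibitor gene Cdkn1a from 10.2 to 4.05 (-1.15). In wild type Ccng1 stood at 19.2 and 17.6 FPKM, Phlda3 at 1.27 and 2.98 and Cdkn1a at 3.42 and 3.02. None of the 14 was past the rule there, the median was -0.05, and the Tc/Tc ratio was the larger in 0 of 14. At E8 these 3 genes stood higher in Tc/Tc than in wild type, and at E10 Cdkn1a stood higher and Ccng1 and Phlda3 lower; these differences were not tested.

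Glycolytic genes stayed within the size rule in Tc/Tc, with 0 of 13 past it and a median of 0.54. With the other estimate of Tc/Tc E8 that median was 0.26. Ldha stood at 1205 and 1793 FPKM, Slc2a1, the main embryonic glucose transporter gene, at 374 and 422, and Slc2a3 at 650 and 511. In wild type 4 of the 13 were lower and the median was -0.75, with Slc2a1 at 395 and 92.9 FPKM and Slc2a3 at 423 and 64.1. Of 12 measured hypoxia targets outside glycolysis 3 were higher in Tc/Tc: Ankrd37 (1.41), Egln1 (1.33) and the mitophagy gene Bnip3, from 52.2 to 117 FPKM (1.15). With the other estimate of Tc/Tc E8 the Bnip3 ratio was 0.76 and inside the size rule. Of 15 respiratory chain genes 1 was lower, Cyc1 (-1.06).

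Genes used by dividing cells and common reference genes changed little. Small lists held few measured genes: Trp63 (1.38) was higher among 4 of surface ectoderm, Cryab (2.84) among 2 of lens, eye and ear, and Fcgr3 (-1.42) was lower among 3 of white cells, while Itga2b (-0.80) was the 1 platelet gene measured. Of 24 measured replication and cell cycle genes 2 were higher, Ccnd2 from 36.0 to 81.8 FPKM (1.16) and Bub1 from 42.4 to 87.0 (1.02), and Bub1 was inside the rule with the other E8 estimate (0.56). Of 10 common reference genes 1 was higher, B2m from 8.14 to 18.7 FPKM (1.11). Fos (-1.43), Egr1 (-1.30) and Fosb (-1.04) were lower among 12 measured genes of the immediate early and heat shock list. Of 16 imprinted genes 4 were higher, Mest, Nnat, Ndn and Grb10, and 1 was lower, Phlda2. Mest went from 81.7 to 487 FPKM (2.56). Among named autosomal genes the highest FPKM in both Tc/Tc libraries was that of Hsp90ab1, a chaperone gene, at 6821 at E8 and 6829 at E10, although the other E8 estimate was 9654.

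Across the 12215 genes measured in both genotypes, the Tc/Tc and wild-type stage ratios had a Pearson r of 0.61 and a Spearman rho of 0.60. These are correlations across genes, which are not independent replicates, and the stage pairs share no library. Higher in both were 323 genes, or 35.8% of those higher in Tc/Tc and 48.7% of those higher in wild type. Lower in both were 230, or 58.5% and 39.6%. The Tc/Tc ratio exceeded the wild-type ratio by 1 or more for 714 genes (5.85%) and fell short of it by 1 or more for 335 (2.74%). Among genes of 10 FPKM or more in at least 1 of the 4 libraries, the 8 with the largest positive differences included 5 cardiac muscle genes, Myh6, Actc1, Ankrd1, Myl7 and Myl4, with Nepn, Hoxc8 and Apoa1. Within the same limit, the 8 with the largest negative differences were Mrpl33, Ckb, Fabp3, Nefm, Slc25a12, Cited4 and the histone genes Hist1h2af and Hist1h2ad, whose near-identical copies make their values uncertain. Ckb, a creatine kinase gene of brain, stood at 11.96 and 11.8 FPKM in Tc/Tc and at 4.03 and 64.4 in wild type.

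**Figure D5:**
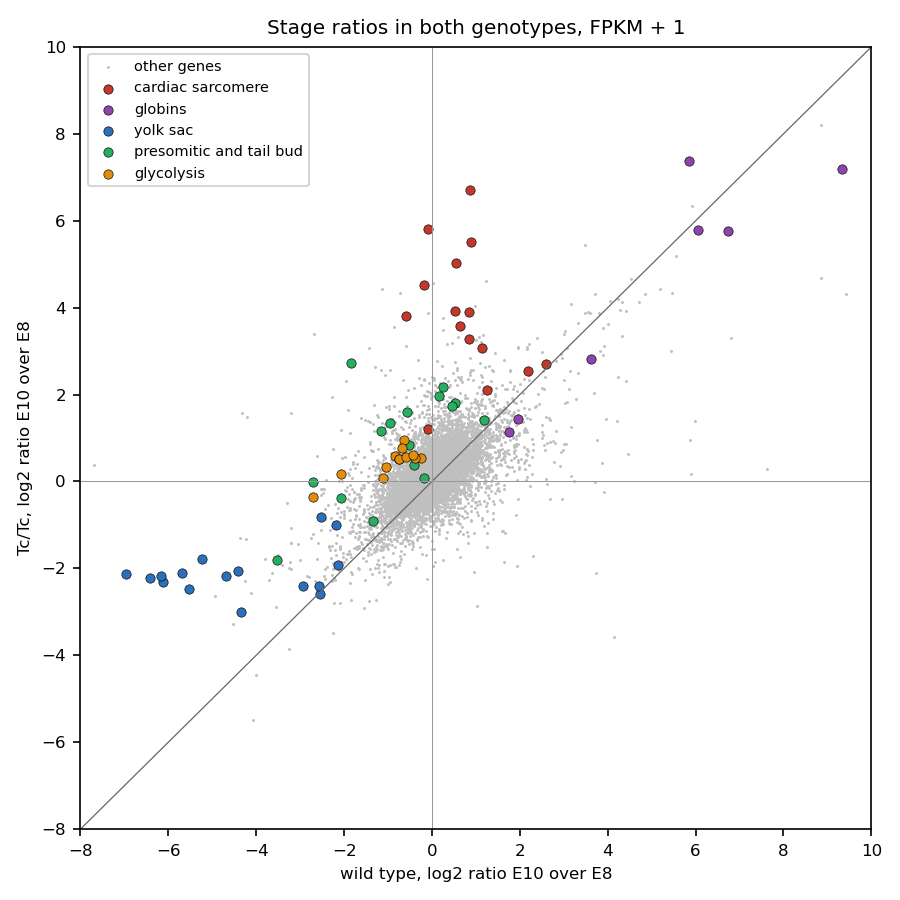
Stage ratio of each of 12215 genes in wild type (horizontal axis) and in Tc/Tc (vertical axis), both as log2((FPKM at E10 + 1)/(FPKM at E8 + 1)), with 5 gene lists in colour and the line of equal ratios. The 15 cardiac genes lie above that line, the 13 glycolytic genes lie above it with wild-type ratios under 0, and yolk sac genes lie at the lower left.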

How the data were processed

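Libraries were made from TRIzol-extracted total RNA of whole embryos with a directional kit, ScriptSeq v2, per the labels' protocols. The submitters' processing notes name Bowtie2, Cuffdiff and the build mm9; tool versions and annotation: not given in the sources used here. Deposited by the authors were 4 tables, each comparing 2 libraries, with FPKM values, a natural log fold change and a p-value per gene, per the file headers. The Tc/Tc E8 column is that of the Tc/Tc stage table, and the Tc/Tc E10 column that of the table comparing genotypes at E10. The second FPKM column of the stage table is headed wild type E10; this 1 column was not used. The authors' deposited natural log fold change in that table equalled the natural log of Tc/Tc E10 over Tc/Tc E8 within 0.01 for 89.1% of 12186 genes and had the same sign for 99.4%. The deposited p-values, made by the authors from 1 library per group, are not reported; a p-value of 1 was read as no estimate in the stage table, since it coincided with 0 in both libraries in the other tables.

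Genes were joined by Ensembl identifier, and 25 symbols that had become dates were restored. Chromosomes came from GENCODE M21, or by symbol from RefSeq for 1309 genes, a step chosen after seeing the data; 447 genes that met the rule had no chromosome and 647 lay on X, Y or the mitochondrial genome. A further 398 autosomal genes with 1 FPKM or more in 1 library had no estimate in the other table. Some list members are counted but not reported by name here. The pseudocount was 1 FPKM. Named genes are members of the lists, T, the 12 highest and 12 lowest ratios among genes of 10 FPKM or more, 6 per direction listed at 0, the 8 largest differences from wild type in each direction and the 8 most abundant per library; gene models, small RNAs and pseudogenes were not named, and the small RNA filter was widened after values had been seen. The members and lists were chosen with earlier results of these data known. The ratio code was tested on simulated data. Python 3.11.15 with pandas 2.3.3, numpy 2.4.6 and matplotlib 3.10.9 was used.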

Additional observations from a re-analysis of the deposited data

Results flagged for a closer look

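Among the listed and named genes, 14 were past the size rule in opposite directions in the Tc/Tc and the wild-type stage comparison. Of these, Nepn, Ankrd1 and Nefm were also among the genes picked for the largest differences between those ratios. The 14 are thus not an unselected sample. Over all 12215 genes measured in both, 31 were higher at E10 in Tc/Tc and lower in wild type, and 12 were the reverse. With 1 library per group, none of these differences was tested.

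Tbx6, a regulator of presomitic mesoderm, had a log2 stage ratio of 1.16 in Tc/Tc, and its wild-type ratio was -1.17. Msgn1, of the same tissue, was at 5.57 FPKM at E10 in Tc/Tc and listed at 0 at E8, and its wild-type ratio was -1.83. Evx1 stood at 1.12 in Tc/Tc against -1.88 in wild type. The ratios of Tdgf1, a Nodal co-receptor gene, were 1.39 and -1.47 in the same order. Tbx4 had ratios of 1.76 and -1.32.

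Ankrd1, a cardiac ankyrin repeat gene, had a ratio of 4.44 in Tc/Tc against -1.15 in wild type, and Gata5 had ratios of 1.25 and -1.07. Nepn had ratios of 3.39 and -2.68. Pyy was at 1.81 FPKM at E10 and listed at 0 at E8 in Tc/Tc, and at 1.36 FPKM at E8 and listed at 0 at E10 in wild type. The hypoxia target Bnip3 had ratios of 1.15 and -1.31.

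The brain patterning genes En1 and Egr2 had whole-embryo ratios of 2.45 and 1.64 in Tc/Tc and of -1.07 and -1.92 in wild type. The neurofilament gene Nefm went the other way, at -1.51 in Tc/Tc and 1.24 in wild type, as did Bcl11a, at -1.18 and 1.65.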

How the results depend on the processing

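With a pseudocount of 0.1, 1526 genes were higher and 691 lower at E10; with a pseudocount of 5 the counts were 293 and 172. A minimum of 5 FPKM, which leaves fewer genes, gave 580 higher. A size rule of log2 2 gave 198 higher and 64 lower, and the authors' deposited fold change, which has no pseudocount, gave 1617 and 721. Lists with a median of 1 or more numbered 4 with a pseudocount of 5, 8 with no minimum and 10 with centred ratios, against 16; lists with a median of -1 or less numbered 1 with a pseudocount of 5 and 1 with no minimum, against 2. Scaling to equal summed FPKM moved the median of all genes from 0.12 to 0.26, with 1213 higher and 348 lower. The other estimate of Tc/Tc E8 moved it to 0.04, with 772 higher and 515 lower. Of 38 genes named for their rank that were past the size rule, 34 stayed past it with a pseudocount of 5, 35 with a minimum of 5 FPKM and 38 in the other settings run. In the comparison with wild type, the values of the genotype tables gave 859 genes more positive and 295 more negative in Tc/Tc; with Tc/Tc E8 also from a genotype table, a setting chosen after seeing the data, the counts were 723 and 329. No paired analysis was possible because each group has 1 library. The FPKM tables hold no read counts, so what depth limits at low levels is unknown.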
